A study of Homo sapiens with 24 samples.

Results

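Every array with calcitriol was compared with every array without it, as the main effect of calcitriol in a 2-by-2 design of agents. The comparison used all 24 arrays of the study: the 12 that had received calcitriol, alone or with estrogen, against the 12 that had received nothing or estrogen. Cell line and estrogen were blocking factors, so each calcitriol array was weighed only against arrays of its own line. The cells were GM10855 and GM10861, B-lymphoblastoid lines, that is, blood B cells transformed with Epstein-Barr virus that grow continuously in culture. In each line, 3 arrays came from untreated cells at 0 h, 3 from cells given calcitriol for 36 h, 3 from cells given estrogen for 36 h and 3 from cells given both for 36 h. The sources used here give no dose, vehicle or medium and do not name the estrogen. They also leave unsaid whether a group's 3 arrays were separate cultures, so p-values measure the spread among arrays, which may be technical. Both lines are transformed cells, and 2 lines are a small sample of B cells.

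Calcitriol, the hormone made from vitamin D, binds the nuclear vitamin D receptor, VDR. With its partner, a retinoid X receptor such as RXRA, VDR binds paired hexamer elements in DNA and recruits coactivators, and the enzyme CYP24A1, which it induces, then breaks calcitriol down. Activated B cells carry VDR and can themselves respond to the hormone. VDR also lowers some genes, often by less than it raises others, and pooling arrays lowers the error of such small changes.

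The lines carried the genes of their type. Of 23 genes of B cell identity and receptor signalling, 17 had a mean log2 signal above the upper quartile of every array, among them MS4A1 (CD20) at 10.8, while BANK1 at 2.95, CD24 at 4.27 and CD72 at 5.11 lay below the median probe set. Of 13 T cell markers 12 lay below that median, LCK at 8.11 being the exception, and so did 13 of 14 monocyte and myeloid markers and 9 of 12 NK cell markers. None of the members of the T cell, NK cell, myeloid, fibroblast and epithelial, or erythroid and platelet lists was called for calcitriol, and the largest change among them was 0.127 on the log2 scale. No array stood far apart: the root-mean-square deviation of an array from its group mean ran from 0.101 to 0.145, arrays of a group correlated at 0.990 or more across probe sets, and the highest correlation between any 2 arrays was 0.995. In RNA from whole cultures, fewer cells of a type and less RNA per cell cannot be told apart.

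With calcitriol, 230 of 21214 probe sets with a gene name rose and 48 fell. These were 1.08% and 0.226% of the probe sets tested, 1.31% in all, at a Benjamini-Hochberg adjusted p under 0.05 in limma. At an unadjusted p under 0.05 the count was 1768. They stood for 209 genes that rose and 44 that fell, besides 12 rising and 2 falling probe sets that name several genes. The changes are differences of log2 signal, so 1 unit is a doubling.

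Falls were small. Their median was -0.23, a 1.17-fold fall, the smallest that passed was -0.16, a 1.11-fold fall, and HGF alone fell by 0.5 or more, CCR2 being at -0.498. The median rise was 0.29, or 1.22-fold; 29 rises reached 0.5 and 3 reached 1. Over all 18417 genes the median change was -0.0066. Falling probe sets had a median log2 signal of 6.37 and rising ones of 7.30, against 5.8 for all tested, and 13 of the 48 falls were below the median level. The plot of change against signal level shows the falls as a narrow band below 0. Uncalled probe sets lie in that band too, such as NT5E at -0.25 and PECAM1 at -0.23, so size alone does not set the falls apart.

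**Figure D1:**
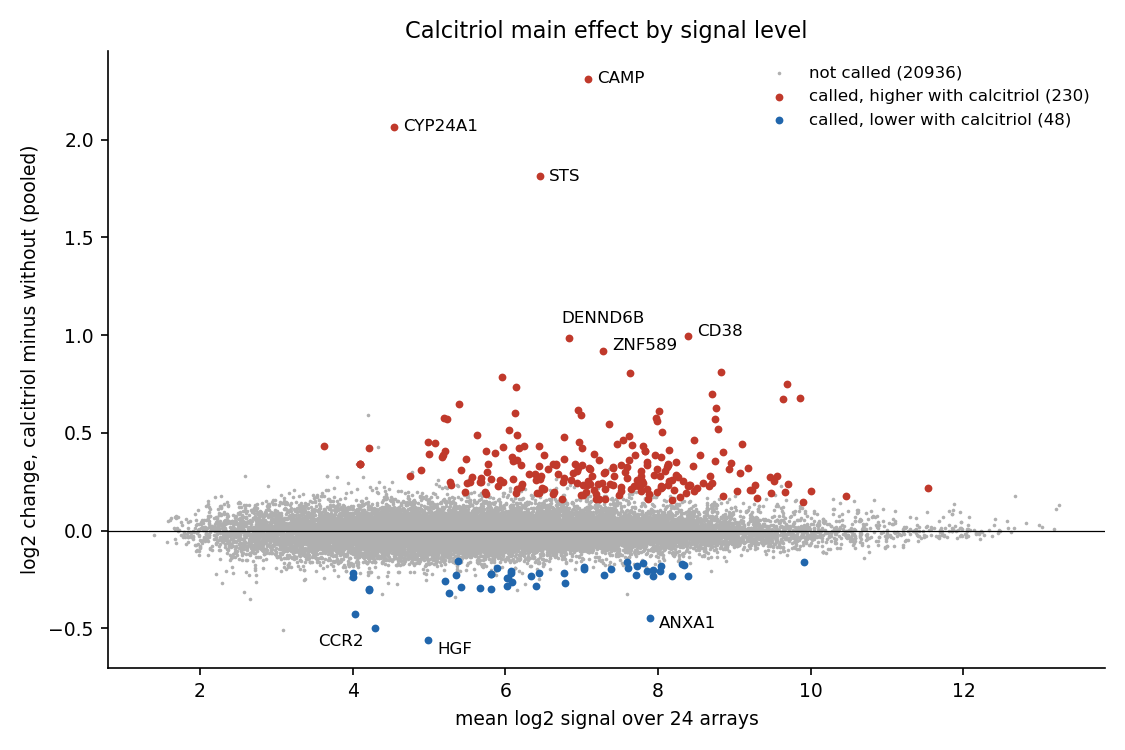
Log2 change with calcitriol, pooled over lines and estrogen (vertical axis), against the mean log2 signal over the 24 arrays (horizontal axis) for 21214 probe sets; red points are the 230 called higher, blue points the 48 called lower and grey points were not called. The rises reach 2.31 for CAMP, while the falls lie between -0.16 and -0.56.

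Pooling lowered the median standard error of a change to 0.0537, from 0.0742 in each line or estrogen condition. Fitted as separate contrasts, calcitriol without estrogen gave 131 higher and 13 lower calls (0.618% and 0.0613% of probe sets), and calcitriol added to estrogen gave 144 and 16 (0.679% and 0.0754%). By line the counts were 263 and 33 in GM10855 (1.24% and 0.156%, 1.4% in all) and 65 and 13 in GM10861 (0.306% and 0.0613%). All 48 called falls were below 0 in each of the 4 combinations of line and estrogen, and 225 of the 230 rises were above 0 in each. Of all probe sets tested, 7.87% were below and 6.91% above 0 in all 4. The pooled value is the mean of these 4 combinations, so this shows how even the changes were and is no separate test.

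The comparisons without and with estrogen differ in timing. Calcitriol without estrogen compares cells at 36 h with untreated cells at 0 h, so there the agent and time in culture cannot be told apart, whereas calcitriol added to estrogen compares cells that were all at 36 h. Untreated arrays were the only ones at 0 h, so a change due to time alone would enter each pooled value in part. It would also appear as an interaction of calcitriol with estrogen. For that interaction limma called 0 of 21214 probe sets (935 at an unadjusted p under 0.05, smallest adjusted p 0.671). Its error was larger than that of the pooled value, for HGF an SE of 0.138 against 0.0645. Time apart from the agent was not tested. Of the falls, 29 of 48 were larger without estrogen, and of the rises 122 of 230. A p that misses the threshold does not show that the comparisons were equal. The value of the time-matched comparison, calcitriol added to estrogen, is therefore given beside HGF, CCR2, ANXA1, CMAHP, CAMP, CYP24A1, STS and CD38. Some other falls were smaller there than without estrogen, such as TOX at -0.23 against -0.39 and RASSF6 at -0.14 against -0.32. MYO5C was at -0.11 against -0.32 and DUS4L at -0.12 against -0.26. Others were larger there, such as HMCES at -0.25 against -0.13 and ZNF18 at -0.22 against -0.094.

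HGF, the gene for hepatocyte growth factor, which signals through the receptor MET, had the largest fall. In GM10855 its log2 signal was 6.36, 6.04 and 5.71 untreated, 5.67, 5.47 and 5.42 with calcitriol, 6.17, 5.89 and 5.93 with estrogen, and 5.53, 5.06 and 5.43 with both. In GM10861 it was 4.65, 4.61 and 4.47 untreated, 3.96, 3.87 and 4.25 with calcitriol, 4.36, 4.42 and 4.59 with estrogen, and 3.95, 3.93 and 3.93 with both. All 6 calcitriol arrays of each line lay below all 6 arrays without it. The pooled change was -0.56 (SE 0.0645, adjusted p = 1.58e-06 in limma), a 1.47-fold fall, with -0.59 in the time-matched comparison, -0.58 in GM10855 and -0.53 in GM10861. Signals near 4 are dim, since the lower quartile of the arrays was 3.97 to 4.08. MET changed by -0.041 (adjusted p = 0.929 in limma) at a mean signal of 3.46. HGF was the only called gene of 24 in the list of HGF, MET and other growth factor signalling. Over all genes 1.13% were called higher and 0.233% lower.

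CCR2, the chemokine receptor through which CCL2 draws in monocytes and other leukocytes, fell by 0.50 (SE 0.0668, adjusted p = 1.88e-05 in limma), and a further CCR2 probe set fell by 0.43 (adjusted p = 0.00847). In GM10855 the 6 calcitriol arrays ran from 3.86 through a median of 4.04 to 4.34, against 4.26, 4.63 and 4.94 without calcitriol. In GM10861 they ran from 3.86 through 4.02 to 4.15, against 4.28, 4.46 and 4.64. The groups overlapped slightly in GM10855 and not in GM10861. The time-matched comparison gave -0.55. As for HGF, these signals lie near the lower quartile of the arrays.

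ANXA1 (annexin A1, a calcium-dependent phospholipid-binding protein with anti-inflammatory actions) was the brightest of the large falls. Its signal in GM10855 ran from 8.26 through a median of 8.53 to 8.71 with calcitriol and from 8.75 through 8.88 to 9.02 without. In GM10861 it ran from 6.47 through 6.81 to 7.09 with calcitriol and from 7.18 through 7.37 to 7.53 without. The groups were apart in both lines. The change was -0.44 (SE 0.0577, adjusted p = 1.10e-05 in limma), or 1.36-fold, with -0.51 in the time-matched comparison. Of 15 annexins and S100 proteins ANXA1 alone was called, where 1.13% of all genes were called higher and 0.233% lower. The other large annexin signal, ANXA2, changed by -0.092 (adjusted p = 0.576 in limma).

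CMAHP, a pseudogene of the hydroxylase that makes N-glycolylneuraminic acid in other mammals, was the remaining fall whose calcitriol arrays lay below the others in both lines. In GM10855 its signal was 5.38 to 5.68 with calcitriol and 5.81 to 6.01 without, and in GM10861 6.11 to 6.28 and 6.31 to 6.51. The pooled change was -0.28 (SE 0.0455, adjusted p = 0.000299 in limma). The time-matched comparison gave -0.22 and did not call it (adjusted p = 0.118 in limma), whereas HGF, CCR2 and ANXA1 were called there. In GM10861 with estrogen the CMAHP change was -0.081. These 3 falls, HGF, ANXA1 and CMAHP, were the only probe sets of all tested that were separated downward in both lines (0.0141%), against 71 separated upward (0.335%). Taken by line, 14 of the called falls were separated in GM10861, where 114 of all probe sets were (0.537%), and 6 in GM10855, where 30 were (0.141%). The falls were chosen on these same arrays, so these counts describe them and test nothing.

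**Figure D2:**
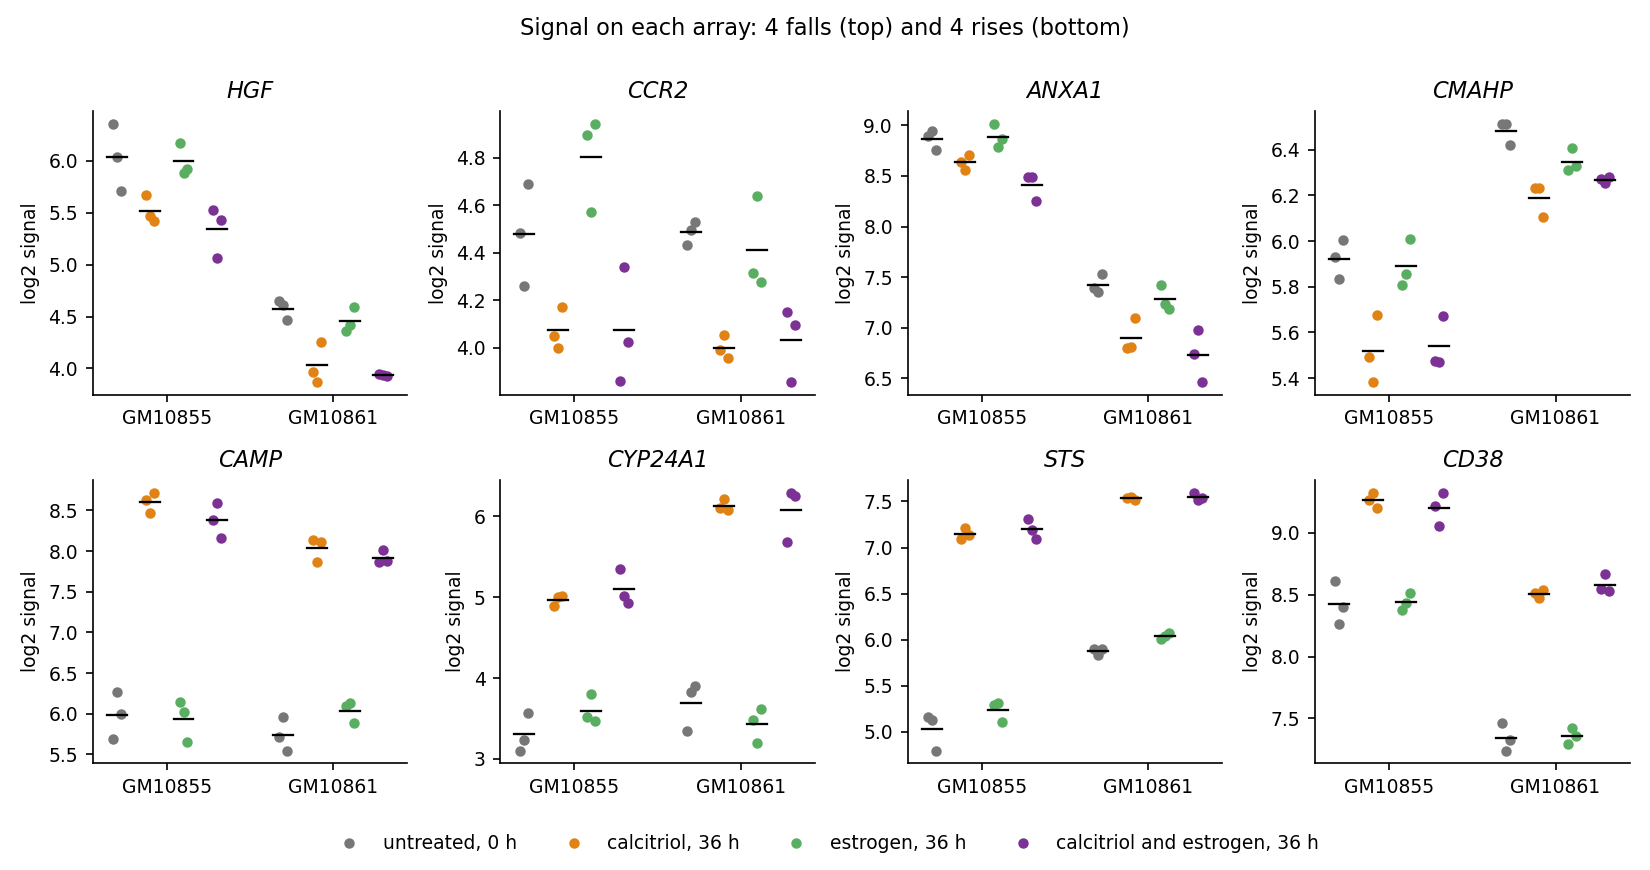
Log2 signal on each array (points, 3 per group) and group mean (black bars) for HGF, CCR2, ANXA1 and CMAHP, which fell, and CAMP, CYP24A1, STS and CD38, which rose, in GM10855 (left of each panel) and GM10861 (right); vertical axes differ between panels and do not start at 0. In every panel the calcitriol arrays (orange and purple) stand on the same side of the untreated and estrogen arrays (grey and green) in both lines, apart from a slight overlap for CCR2 in GM10855.

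The other falls are given by role, a grouping made after their values were seen, starting with receptors and surface proteins. IL10RA, the ligand-binding chain of the interleukin-10 receptor, fell by 0.29 (SE 0.0492, adjusted p = 0.000675 in limma). Its signal was 6.59, 6.68 and 6.93 (lowest, median, highest) with calcitriol and 6.91, 7.05 and 7.25 without in GM10855, and 5.64, 5.8 and 6.0 against 5.93, 6.04 and 6.10 in GM10861, so the ranges overlapped slightly in both lines. IL10RB, the other chain, changed by 0.035 (adjusted p = 0.910) and IL10 itself by -0.085 (adjusted p = 0.829). The tetraspanin TSPAN7 fell by 0.29 (adjusted p = 0.0153), the GPI-anchored protein CD109, which binds transforming growth factor beta, by 0.24 (0.00225), the Toll-like receptor homologue CD180 (RP105) by 0.22 (0.0215) and the adhesion protein ALCAM by 0.17 (0.0255). IL3RA, the interleukin-3 receptor chain, fell by 0.22 (0.0329) on a pair of probe sets with identical values, counted as 1 gene. IL10RA, TSPAN7 and CD109 were called in all 24 fits that left out an array, while CD180 was lost in 1, ALCAM in 10 and IL3RA in 14.

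Signalling proteins inside the cell fell by similar amounts. RPS6KA5 (MSK1), a nuclear kinase that acts downstream of p38 and ERK, fell by 0.29 (SE 0.0608, adjusted p = 0.00629 in limma), with a signal of 4.49 to 5.16 with calcitriol and 5.04 to 5.46 without in GM10855, and 5.59 to 5.96 against 5.75 to 6.10 in GM10861. MAP2K6, the kinase that activates p38, fell by 0.19 (adjusted p = 0.0201), while MAPKAPK2, the p38 substrate kinase, rose by 0.48 (1.42e-05). LAX1, a membrane adaptor that restrains lymphocyte receptor signalling, fell by 0.23 (0.00168); its ranges were apart in GM10861, at 7.11 to 7.31 against 7.40 to 7.56, and overlapped in GM10855. STK17B (DRAK2), a lymphocyte kinase, fell by 0.16 (0.020). RASSF6, which has a Ras-association domain, fell by 0.23 (0.0286), though by only 0.014 in GM10855 with estrogen, and its call was lost in 9 of 24 fits that left out an array.

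Among cytoskeletal and junctional genes, FRMD6, a FERM-domain protein tied to Hippo signalling, fell by 0.32 (SE 0.0624, adjusted p = 0.00299 in limma). Its fall was -0.49 in GM10855, where ranges of 5.45 to 5.87 and 5.89 to 6.27 were apart, and -0.15 in GM10861, where they overlapped. The difference between lines was 0.35 (adjusted p = 0.310) and was the closest to the threshold of any fall. CAPN2, the catalytic subunit of calpain 2, fell by 0.27 (0.00293), CTNNAL1 (alpha-catulin) by 0.26 (0.000515), CCDC88A (girdin, an actin-binding protein) by 0.23 (0.00315), the myosin MYO5C by 0.22 (0.00973), the planar polarity protein PRICKLE1 by 0.21 (0.00832) and the small GTPase RHOQ by 0.21 (0.0152).

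Nuclear and metabolic genes were also among the falls. TOX, a transcription factor of the HMG-box family that is active in lymphocytes, fell by 0.31 (SE 0.0574, adjusted p = 0.00195 in limma) from a dim signal, with ranges of 3.82 to 4.17 with calcitriol and 3.99 to 4.46 without in GM10855 and of 4.05 to 4.36 and 4.36 to 4.70 in GM10861. ARID5B, a chromatin regulator, fell by 0.16 (0.0413) and HMCES, which shields abasic sites in DNA, by 0.19 (0.0151). ACOXL, related to the acyl-CoA oxidases, fell by 0.30 (0.00249), the thiamine transporter SLC19A2 by 0.23 (0.00352), the aldehyde dehydrogenase ALDH2 by 0.22 (0.0330) and the phosphatidate phosphatase LPIN1 by 0.18 (0.0367). TWSG1, a secreted modulator of bone morphogenetic proteins, fell by 0.21 (0.00971). The calls of ALDH2, LPIN1 and ARID5B were lost in 13, 14 and 16 of 24 fits that left out an array, and those of TOX, ACOXL, SLC19A2, TWSG1 and HMCES in 0.

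Several falls were of interferon-inducible or noncoding genes. GBP2, an interferon-induced GTPase, fell by 0.24 (SE 0.0592, adjusted p = 0.030 in limma), PARP9, a partner of the ubiquitin ligase DTX3L in interferon responses, by 0.23 (0.00326) and IFIT1, an antiviral RNA-binding protein, by 0.20 (0.0498). PARP9 was called in all 24 fits that left out an array, whereas GBP2 was lost in 12 and IFIT1 in 19. The pseudogenes DPPA3P2 (-0.30, adjusted p = 0.0412) and METTL21EP (-0.24, 0.0466) and the antisense RNAs YWHAH-AS1 (-0.26, 0.0330) and RNF213-AS1 (-0.23, 0.0485) were lost in 16, 19, 13 and 18. RNF213 itself rose by 0.32 (adjusted p = 0.000216). Whether these probe sets separate sense from antisense RNA was not tested.

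The other called falls were SNORD50B, TRIM69, UBR7, DUS4L, HEG1, DIPK1A and ZNF18, between -0.16 and -0.23. TRIM69 and UBR7 were called in all 24 fits that left out an array, while DUS4L and ZNF18 were each lost in 5, HEG1 in 13, SNORD50B in 14 and DIPK1A in 16. At the threshold, IFIT1 was the last called fall, and the first uncalled was SORBS2 at -0.16 (adjusted p = 0.0530). The uncalled NT5E (CD73), which makes adenosine, at -0.25 (0.0717) and PECAM1 at -0.23 (0.0744) had larger changes with larger errors. On the other side, BMP2K at 0.19 (0.0481) was just called and SP100 at 0.14 (0.0512) was not.

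**Figure D3:**
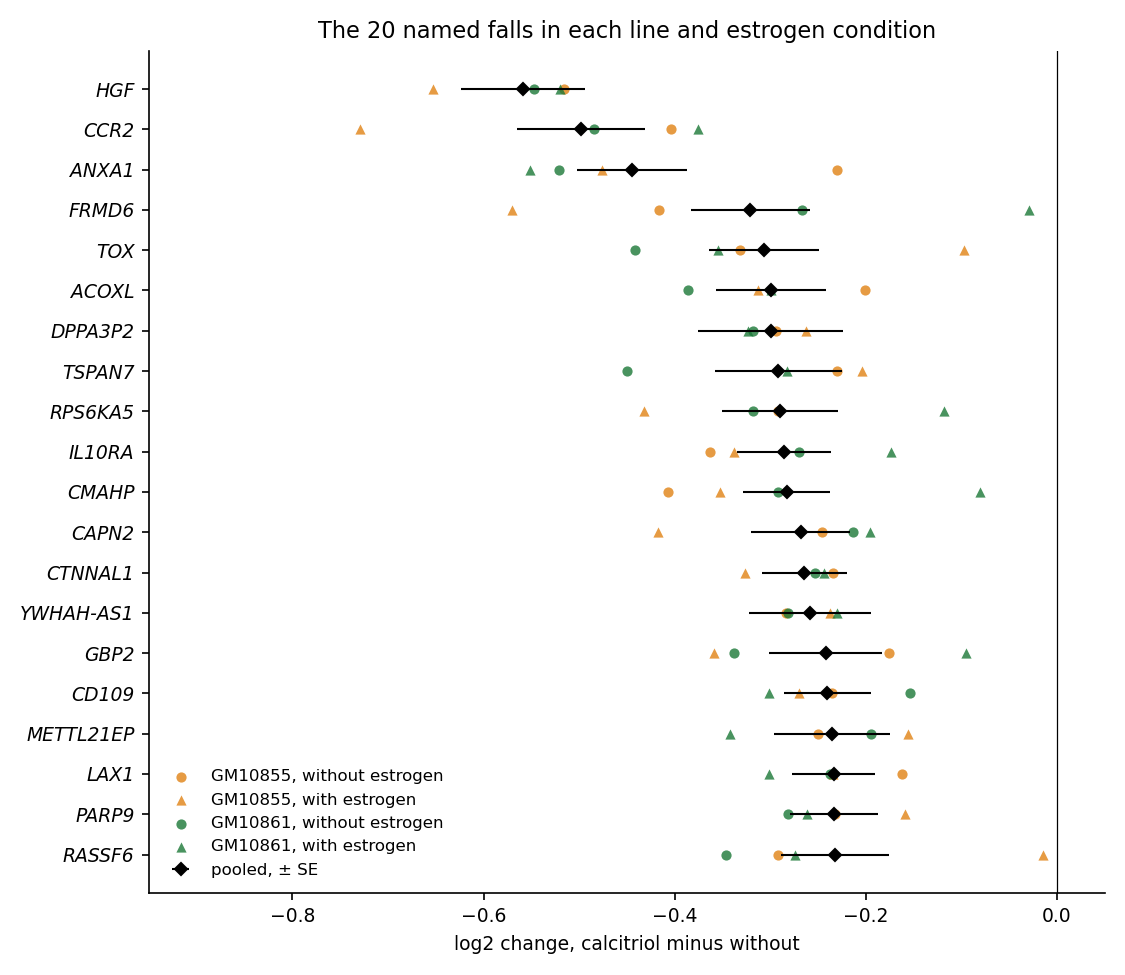
Log2 change with calcitriol for the 20 named falls in each of the 4 combinations of line and estrogen (coloured points) and pooled (black diamonds, bars ± SE). Every point lies below 0; the spread between combinations is largest for FRMD6, from -0.57 to -0.029, while CTNNAL1 stays between -0.23 and -0.33.

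The 4 largest rises were in CAMP, CYP24A1, STS and CD38. CAMP, the gene for the antimicrobial peptide cathelicidin, rose by 2.31 (SE 0.0873, adjusted p = 4.99e-17 in limma), or 4.96-fold. Its signal ran from 8.17 to 8.72 with calcitriol and from 5.65 to 6.27 without in GM10855, and from 7.86 to 8.14 against 5.55 to 6.13 in GM10861, so the groups were far apart. CYP24A1 rose by 2.07 (SE 0.125), STS, the sulfatase that releases free steroids from steroid sulfates, by 1.81 (SE 0.0611), and CD38, a surface enzyme that consumes NAD, by 0.996 (SE 0.0567). In the time-matched comparison they rose by 2.16, 2.08, 1.74 and 0.99. SLC25A20, the carnitine carrier of mitochondria, rose by 0.80, the long-chain acyl-CoA synthetase ACSL1 by 0.63, the sulfatase SULF2, which trims heparan sulfate, by 0.73 and CYP19A1, the aromatase that makes estrogens, by 0.43. CYP19A1 was dim. Its signal was 3.87 to 4.40 with calcitriol and 3.34 to 3.71 without in GM10855. In GM10861 it was 3.28 to 3.61 against 3.16 to 3.56, overlapping and below the lower quartile of the arrays.

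VDR itself rose by 0.38 (SE 0.0497, adjusted p = 1.42e-05 in limma). In GM10855 its signal was 5.39, 5.47 and 5.63 (lowest, median, highest) with calcitriol and 4.81, 5.04 and 5.08 without, and in GM10861 5.04, 5.27 and 5.35 against 4.85, 4.97 and 5.05, so the groups were apart in GM10855 and overlapped by a hair in GM10861. RXRA changed by -0.10 (adjusted p = 0.576), CYP27B1, which makes calcitriol, by -0.0048 (0.995), and the estrogen receptors ESR1 and ESR2 by -0.055 (0.906) and 0.026 (0.960). Of 40 listed VDR targets measured, 8 rose and none fell; CAMP, CYP24A1 and VDR were joined by G0S2 (0.49), SLC37A2 (0.43), GADD45A (0.28), SRGN (0.22) and LRRC8A (0.20). The median of the list was 0.029, against -0.0066 for all genes; the list was compiled from various tissues. Over all genes, 1.13% were called higher and 0.233% lower.

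The 20 largest rises also held DENND6B, which activates Rab GTPases (0.99), the zinc finger gene ZNF589 (0.92), CLMN (0.78), the lysosomal protease legumain, LGMN (0.75), the poly(A) polymerase TENT5C (0.70), ITM2C (0.68), the ubiquitin ligase TRIM31 (0.65), SERINC2 (0.62), the splicing factor MBNL2 (0.61), the exchange factor SPATA13 (0.60) and the kinase HIPK2 (0.59). For all 20, every calcitriol array was above every array without calcitriol in its line, as for 71 of the 21214 probe sets tested (0.335%). The 20 were chosen on these same arrays, so this describes them and tests nothing.

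Promoter sequence was set beside both directions. The 250 bases before each start in the RefSeq promoter table (build GRCh38.p14) were searched on both strands for the VDR hexamers, AGGTCA with its variant GGGTCA, and AGTTCA with its variant GGTTCA, and for pairs of them as a direct repeat with 3 bases between, a search that overlaps that for single hexamers. A hexamer was in 36.0% of 275 promoters of genes that rose (165 of 209 genes matched), 23.1% of 52 promoters of genes that fell (35 of 44) and 30.7% of 20094 promoters of all measured genes. A repeat with at most 2 of its 12 bases mismatched was in 16%, 11.5% and 12.6%. With at most 1 mismatch it was in 7 promoters of genes that rose, 2.55%, in 0 of the 52 of genes that fell and in 203 of all, 1.01%. These shares are descriptions without a test, a match is neither a bound site nor a cause, and elements farther from the start lie outside the window.

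Sequences are printed for the largest of the 20 named rises with such a repeat at 2 mismatches, up to a set number. They are also printed for each of the 20 named falls with one, to let its form be compared between the directions. CYP24A1, CLMN, LGMN, TNFRSF17, HIPK2, TOX, DPPA3P2, TSPAN7, CMAHP, GBP2 and METTL21EP had no promoter to search. USP7, a deubiquitinase that rose by 0.17, was chosen after its values were seen because its repeat was the only exact one in a called gene. Capitals mark the repeat, read 5′ to 3′ along the gene's strand; in CD38, ZNF589 and SULF2 the hexamers match on the opposite strand. STS is chrX:7219206-7219455, plus strand, CD38 chr4:15778078-15778327, plus strand, ZNF589 chr3:48240854-48241103, plus strand and SULF2 chr20:47786097-47786346, minus strand. ANXA1 is chr9:73151615-73151864, plus strand, IL10RA chr11:117989695-117989944, plus strand and USP7 chr16:8949655-8949904, minus strand. The repeat starts 83 bases before the start of transcription in STS, 205 in CD38, 56 in ZNF589, 133 in SULF2, 166 in ANXA1, 81 in IL10RA and 82 in USP7.
STS: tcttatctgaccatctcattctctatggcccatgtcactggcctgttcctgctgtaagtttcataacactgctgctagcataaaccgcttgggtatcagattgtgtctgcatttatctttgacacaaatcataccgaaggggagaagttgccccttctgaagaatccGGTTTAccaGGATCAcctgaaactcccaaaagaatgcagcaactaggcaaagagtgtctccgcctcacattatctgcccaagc
CD38: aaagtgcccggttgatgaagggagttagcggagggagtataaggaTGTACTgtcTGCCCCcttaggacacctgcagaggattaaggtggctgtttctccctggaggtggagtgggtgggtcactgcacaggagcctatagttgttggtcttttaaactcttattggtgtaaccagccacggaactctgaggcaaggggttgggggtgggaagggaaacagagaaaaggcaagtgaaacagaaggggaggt
ZNF589: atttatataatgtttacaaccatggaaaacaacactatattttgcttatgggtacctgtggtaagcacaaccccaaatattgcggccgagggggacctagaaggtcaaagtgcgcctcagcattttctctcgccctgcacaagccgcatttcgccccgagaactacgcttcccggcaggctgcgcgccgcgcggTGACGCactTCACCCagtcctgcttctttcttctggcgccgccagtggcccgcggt
SULF2: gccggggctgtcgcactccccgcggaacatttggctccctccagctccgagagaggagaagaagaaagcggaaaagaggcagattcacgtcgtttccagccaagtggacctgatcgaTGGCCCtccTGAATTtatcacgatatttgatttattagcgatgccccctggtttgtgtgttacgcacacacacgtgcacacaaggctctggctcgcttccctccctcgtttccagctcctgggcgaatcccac
ANXA1: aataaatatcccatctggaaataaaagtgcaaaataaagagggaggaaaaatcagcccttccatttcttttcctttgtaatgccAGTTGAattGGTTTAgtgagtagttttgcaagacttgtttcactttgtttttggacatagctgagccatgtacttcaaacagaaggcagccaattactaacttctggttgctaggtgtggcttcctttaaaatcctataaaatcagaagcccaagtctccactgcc
IL10RA: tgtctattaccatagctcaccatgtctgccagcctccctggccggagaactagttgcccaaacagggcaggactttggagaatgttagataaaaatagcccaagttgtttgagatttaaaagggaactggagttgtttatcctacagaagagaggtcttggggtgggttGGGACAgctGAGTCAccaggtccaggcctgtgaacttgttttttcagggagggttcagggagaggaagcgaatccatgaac
USP7: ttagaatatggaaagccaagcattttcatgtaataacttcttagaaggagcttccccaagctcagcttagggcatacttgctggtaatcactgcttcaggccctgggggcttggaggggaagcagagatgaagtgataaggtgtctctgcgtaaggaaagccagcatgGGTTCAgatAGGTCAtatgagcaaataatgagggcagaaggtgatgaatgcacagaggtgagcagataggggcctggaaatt

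The called members of the B cell lists were rises, as were 230 of the 278 calls over all probe sets, and over all genes 1.13% were called higher and 0.233% lower. Of the 23 genes of B cell identity and receptor signalling, 3 rose: CD79A, the signalling chain of the B cell receptor, by 0.81 (adjusted p = 1.63e-09 in limma), the complement receptor CR2 by 0.42 (3.28e-06) and the transcription factor PAX5 by 0.29 (0.000137). Of 17 plasma cell genes 4 rose, CD38, TNFRSF17 (BCMA) by 0.67, CD27 by 0.24 and SDC1 (CD138) by 0.19. Of 20 activated and germinal centre B cell genes 4 rose, CD69 by 0.35, CFLAR, an inhibitor of caspase-8, by 0.23, CD80 by 0.21 and GCSAM by 0.16. All 20 of the latter were above 0, with a median of 0.097, where 54.4% of all genes were below 0. No member of these lists was called lower.

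Receptors for migration moved in both directions. The counts in these lists stand beside shares over all genes of 1.13% called higher and 0.233% called lower. Of 24 chemokine receptors and trafficking genes, CXCR4 rose by 0.36 (adjusted p = 0.00103 in limma), CCR10 by 0.31 (0.000659) and CXCR3 by 0.25 (0.00414), while CCR2 and ANXA1 fell. CCR10, the receptor for CCL27 and CCL28, ran from 8.27 to 8.82 with calcitriol and 8.06 to 8.27 without in GM10855, and from 7.91 to 8.16 against 7.51 to 7.81 in GM10861. Of 17 chemokines CCL22 alone was called, with a rise of 0.46. Of 35 cytokine receptor and JAK-STAT genes, IL2RA (CD25) rose by 0.19 (0.0437) and IL10RA fell. The IL2RA rise was 0.083 without and 0.29 with estrogen, a difference that was not called. TNFSF4 (OX40 ligand) at 0.56 and LTA (lymphotoxin) at 0.31 were the 2 rises among 32 interleukins and TNF family ligands.

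Among 26 lymphoid transcription factors, IKZF1 (0.29) and IRF8 (0.28) rose and TOX fell, where 1.13% of all genes were called higher and 0.233% lower. The 16 genes of the BCL2 family gave a pair of rises, in the survival genes BCL2L1 (0.22) and MCL1 (0.18), and the NF-kB list of 21 gave NFKB2 (0.18). Of 15 genes of MHC class II presentation the rises were LGMN, CTSB (0.23) and IFI30 (0.14), all enzymes of the endosome and lysosome, and no other member was called. CTSZ, a further lysosomal protease, rose by 0.57. DDIT4, an inhibitor of mTORC1, rose by 0.50, and PHGDH, the first enzyme of serine synthesis, by 0.34. GCLC, the rate-limiting enzyme of glutathione synthesis, rose by 0.31, with 0.56 in GM10855 and 0.049 in GM10861, a difference between lines that was not called.

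Of 39 interferon-stimulated genes LAMP3 rose by 0.24 and IFIT1 and PARP9 fell; 29 of the 39 were below 0, and the list median was -0.030. Cell cycle genes gave no called fall. None of 30 G2/M and mitosis genes was called, yet 28 lay below 0, with a median of -0.055 against -0.0066 for all genes. In GM10861 the median was -0.12 with 29 of 30 below 0, and in GM10855 it was -0.0014 with 15 below 0. The medians for all genes were -0.015 and 0.0021. In GM10861 the mean log2 signal of the list on an array ran from 8.30 through a median of 8.35 to 8.40 with calcitriol and from 8.39 through 8.45 to 8.52 without, with a slight overlap, and in GM10855 the ranges were 7.73 to 7.86 and 7.75 to 7.90. The difference between lines was not tested for the list. Of 32 genes of G1/S and replication 24 were below 0, with a median of -0.048, and CDK6, a kinase that drives entry into S phase, rose by 0.20 (adjusted p = 0.00241 in limma). Of 32 oxidative phosphorylation genes 25, and of 27 ribosomal protein genes 23, were below 0 with none called, where 54.4% of all genes were below 0. These counts were uneven. For oxidative phosphorylation 14 were below 0 without estrogen and 29 with it. By line, GM10855 and then GM10861, 14 and 22 ribosomal protein genes were below 0. For the G1/S list these were 17 and 28, and for the interferon-stimulated list 19 and 31. Over the 40 lists examined, 26 held a member that rose and 6 a member that fell. Of all genes 1.13% were called higher and 0.233% lower, but these are shares of genes and not of lists. The lists also differ in size, share members and were chosen with earlier results of these data known, so the counts of lists cannot be set against those shares.

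**Figure D4:**
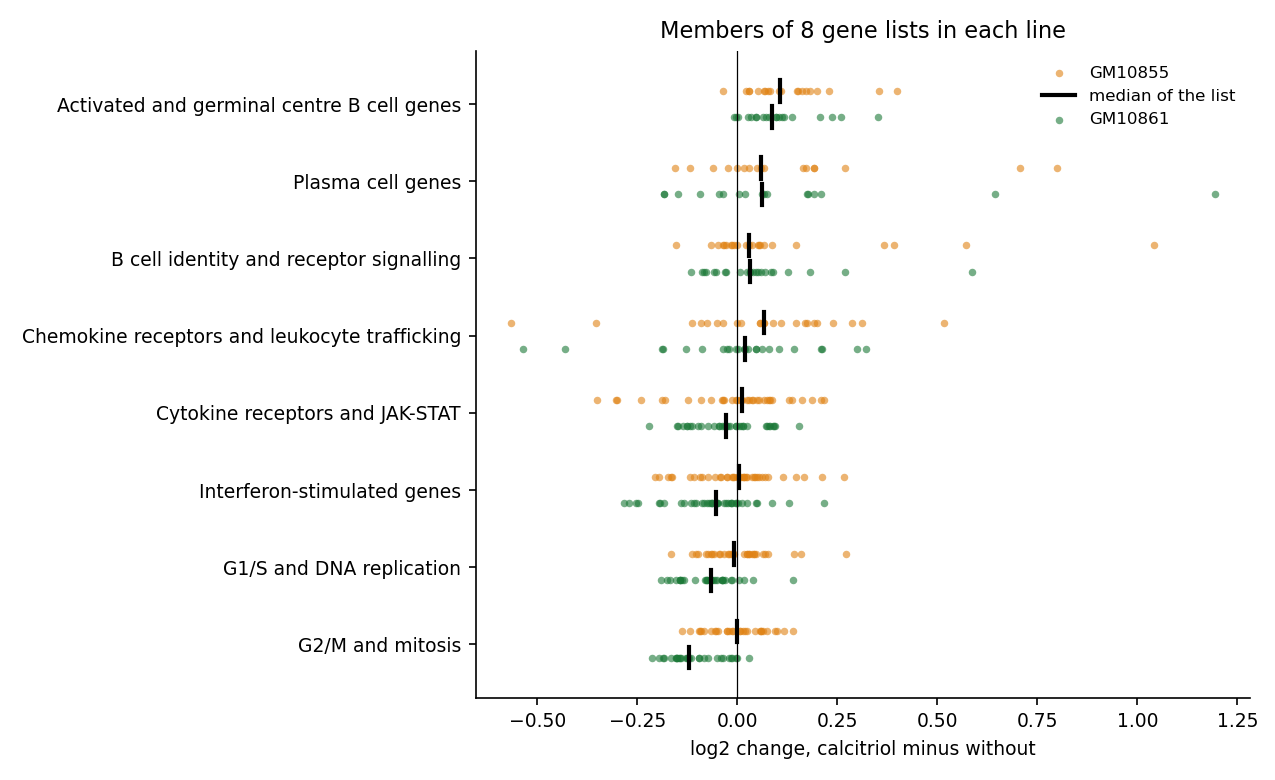
Log2 change with calcitriol for each member (points) of 8 gene lists in GM10855 (orange) and GM10861 (green), with the median of each list (black bars). The G2/M list centres on -0.0014 in GM10855 and on -0.12 in GM10861. The activated B cell list has medians of 0.11 and 0.088, with 1 and 2 of its 20 members below 0.

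The lines were compared by the interaction of calcitriol with line, for which limma called 22 of 21214 probe sets (0.104%), 4 with a higher value in GM10861 (0.0189%) and 18 with a lower (0.0848%; 1904 at an unadjusted p under 0.05). Of the 230 rises 17 were called, and 185 of 230 were larger in GM10855. Of the 48 falls 0 were called, 3 having an unadjusted p under 0.05, and 24 of 48 were larger in GM10855. CYP24A1 rose by 2.55 in GM10861 and 1.59 in GM10855. CLMN, a transmembrane protein with an actin-binding domain, rose by 1.24 in GM10855 and 0.33 in GM10861. SLFN11, which blocks stressed replication forks, changed by 0.90 in GM10855 and 0.059 in GM10861, and the tetraspanin TSPAN2 by 0.86 and -0.010. In GM10861 TSPAN2 was dim, at 3.79 to 4.01 with calcitriol and 3.69 to 3.99 without, near the lower quartile of the arrays.

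PKP2, the junction protein plakophilin 2, moved in opposite directions and was not called in the pooled effect (-0.11, adjusted p = 0.899 in limma). In GM10855 its signal was 6.72 to 7.12 with calcitriol and 7.33 to 7.64 without, a fall of 0.55 (adjusted p = 0.00182), and in GM10861 4.67 to 5.18 against 4.28 to 4.81, a change of 0.34 (0.223). CCL1, a chemokine chosen after its values were seen, likewise differed between the lines: it fell by 0.73 in GM10855 (5.69e-05), from 6.06 to 6.5 without calcitriol to 5.50 to 5.74 with it, and changed by 0.053 in GM10861 (0.963), so the pooled -0.34 was not called (0.119). MS4A1 (CD20) rose by 0.37 in GM10855 (9.49e-05) and changed by -0.054 in GM10861 (0.898).

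**Figure D5:**
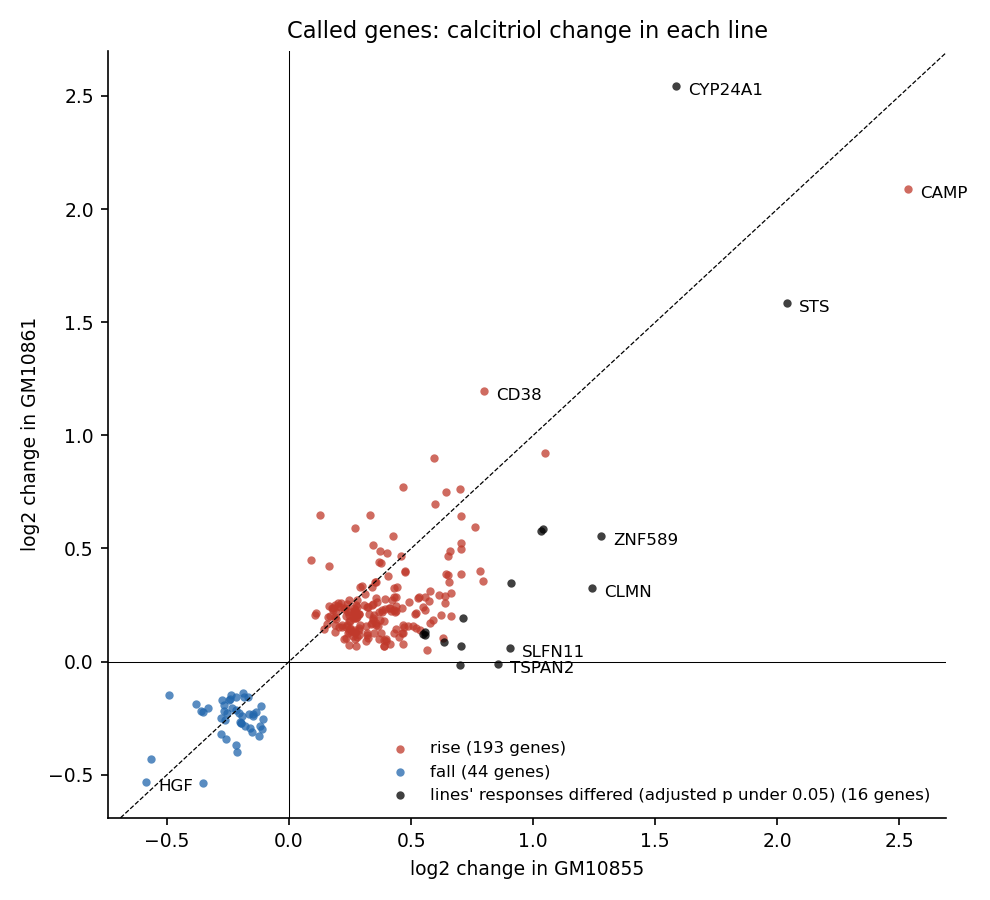
Log2 change with calcitriol in GM10855 (horizontal axis) and GM10861 (vertical axis) for the 209 genes that rose (red) and the 44 that fell (blue), with genes whose responses differed between the lines in black and equality dashed. The falls cluster at -0.1 to -0.6 on both axes with none in black, and CYP24A1 lies above the line of equality at 1.59 and 2.55.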

How the data were processed

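Affymetrix arrays measured RNA in 24 samples. The deposited unit is log2 signal: per the submitters' processing notes, the authors ran RMA with version 1.0.1 of Affymetrix Expression Console. RMA subtracts background, equalises array distributions and summarises probes, which hides any change common to most genes and compresses changes of dim probe sets. Genome build, annotation, slides and scan batches: not given in the sources used here. Of 33297 probe sets, a platform table gave 19460 a single symbol, 1754 several and 12083 none; Entrez IDs of 19429 single-symbol sets matched RefSeq genes of GRCh38.p14. Tests covered the 21214 with a symbol, without further normalisation or filter. The number of arrays limits the precision.

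Limma 3.58.1 in R 4.3.3 fitted line, estrogen and calcitriol additively (20 residual degrees of freedom, 7.39 prior), with two-sided p-values adjusted by Benjamini-Hochberg and called under 0.05. Effects by estrogen, by line and the interactions came from a fit of 8 group means (16 residual degrees of freedom). The additive model was tested on simulated data. Errors of changes are standard errors.

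The comparison, the 40 gene lists (1009 entries, 929 measured, 1 probe set per gene by highest mean, 18417 genes) and the tests were chosen with earlier results of these data known. Named were the 20 largest rises and 20 largest falls that were called, had 1 symbol and changed alike in all 4 combinations of line and estrogen; called list members; VDR, CYP24A1, CYP27B1, RXRA, ESR1 and ESR2; and up to 5 genes called per interaction. Other falls, uncalled partners of named genes, USP7, CCL1, MS4A1, RNF213 and genes at the threshold were named after their values were seen. Alternatives were other models (group means, blocks, array weights, trend and robust), renormalised or centred arrays, no dim probe sets, every probe set, a minimum change of 0.5, single lines, arrays without or with estrogen only, and leaving out each array.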

Additional observations from a re-analysis of the deposited data

Results flagged for a closer look

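For 11 genes named by rule the change with calcitriol differed between the lines by the interaction test (limma with Benjamini-Hochberg adjustment). Coded as the log2 change in GM10861 minus that in GM10855, the difference was positive for CYP24A1 at 0.96 and PKP2 at 0.89. It was negative for CLMN at -0.91, TSPAN2 at -0.87, SLFN11 at -0.84, ZNF589 at -0.73, ACSL1 at -0.56, the nucleotidase ENTPD7 at -0.52, CD79A at -0.46, SLC25A20 at -0.45 and STS at -0.45. Adjusted p-values ran from 2.56e-05 for CLMN to 0.0393 for CD79A. All except PKP2 were called higher in the pooled comparison, and TSPAN2, SLFN11, ENTPD7 and PKP2 were called in GM10855 but not in GM10861, where they changed by -0.010, 0.059, 0.19 and 0.34. The TSPAN2 signal was dim in GM10861. CCL1 and MS4A1, named after their values were seen, also differed, at 0.78 and -0.42 (adjusted p = 0.0173 and 0.0136 in limma). With 2 lines, a difference between lines cannot be told apart from a difference between these particular cultures.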

How the results depend on the processing

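The additive fit called 278 probe sets, 230 higher and 48 lower. A minimum change of 0.5 left 30, 29 and 1. Fits of fewer arrays called less: 171 with 15 lower in GM10855 alone; 78, 68 higher and 10 lower, in GM10861 alone; 75, with 65 and 10, in arrays without estrogen; and 80, with 75 and 5, in arrays with estrogen. Leaving out each array gave 248 to 281 calls, 210 to 241 higher and 32 to 49 lower. With the 3 arrays that lay farthest from their groups left out, an alternative chosen after seeing the data, 198 were higher and 32 lower. All of the 48 falls that were tested stayed below 0 in these fits. The falls were chosen on these same arrays and were below 0 in every combination of line and estrogen, so this tests nothing. Of the 48, 7 were still called in GM10855 alone, 7 in GM10861 alone, 8 in arrays without estrogen and 3 in arrays with estrogen. In all 24 fits without an array 28 were called. Of the 48, 23, HGF, CCR2, ANXA1, IL10RA and CMAHP among them, were called in those fits and also without the 3 arrays. These 23 were also called with group means, blocks, centred arrays, arrays normalised again, trend and robust estimation, array weights or every probe set. With arrays centred on their medians, 36 of the 48 were called. With dim probe sets left out, 36 of 36 tested were called, HGF and CCR2 being too dim to be tested there.

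The line interaction gave 22 calls, 44 without dim probe sets, 55 with trend and robust estimation, 12 over every probe set, 13 at a minimum change of 0.5 and 14 to 41 without an array (41 without an array of GM10855 with both agents, 14 without an untreated GM10861 array). The estrogen interaction gave 0 in all fits that left out an array. The uncalled CYP27B1 changed sign: 0.0046 in GM10855, 0.058 without estrogen, 0.010 without the 3 arrays and -0.049 to 0.020 when each array was left out, above 0 in 10 of 24; ESR2 was -0.015 in GM10855. No paired analysis was possible because the labels carry no replicate numbers and do not link arrays across groups.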
